A study of Homo sapiens with 2 samples.

Results

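The polyadenylated replacement histone genes are 8 of the 20033 protein-coding genes of GENCODE 44 on chromosomes 1 to 22, X and Y, namely H2AZ1, H2AZ2, H2AX, H3-3A, H3-3B, MACROH2A1, MACROH2A2 and H1-10. They were chosen by gene name. A peak belonged to a gene when any base of it fell no more than 3000 bp from an annotated transcript start, over the gene body or within 1000 bp past the 3′ end. This stretch is called the window of the gene here.

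The data were 2 peak lists from J.gamma1, an established T-cell acute lymphoblastic leukemia (T-ALL) cell line, each from 1 biological replicate, in which CUT&Tag was run for NUDT21 and no treatment was given in the labels. This assay tethers a transposase to chromatin through an antibody and sequences the DNA fragments it releases. The series has 1 group, and a control sample was not analysed here, so no comparison of conditions was possible and no test was run over the genes. The peak list of replicate 1 held 97162 peaks and that of replicate 2 held 68532, with medians of 29.0 and 19.0 fragments at the summit.

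Replacement histones are made throughout the cell cycle and are exchanged into chromatin outside replication. The bulk histones of S phase come instead from clustered genes without introns, whose mRNAs end in a stem-loop and carry no poly(A) tail. Replacement histone mRNAs are cleaved and polyadenylated like other mRNAs, a step in which NUDT21 (CFIm25, CPSF5) takes part as the subunit of cleavage factor I that binds UGUA in the RNA. UGUA is written TGTA in the genome. NUDT21 is an RNA-binding protein, and a CUT&Tag peak records fragments cut near the antibody on chromatin, not a contact with a DNA motif.

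All 8 genes had a peak in their window in replicate 1 and 7 had one in both replicates. Over all protein-coding genes, 62.2% had a window peak in both. The gene without a peak in replicate 2 was H3-3A. These 7 genes also had a peak within 3000 bp of a transcript start in both replicates, beside 57.0% of all genes. Neither count required the same place in both lists. With summits within 200 bp of each other, the window count was 6 and the promoter count 5. No share over all genes was computed for that setting. The folds of both lists are not on 1 scale, so each peak was ranked by the share of its own list with a lower fold, its percentile. By this measure H3-3B, H2AX and H2AZ2 held peaks near the top of both lists, H1-10 followed, and H2AZ1, MACROH2A1 and MACROH2A2 did not.

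The stretches just before the canonical starts are shown for the 6 genes where one outside annotated exons was found close to the start. Peaks played no part in this choice. Each of these genes had a peak at its start in at least 1 replicate. The H2AX, H3-3A and H3-3B summits fell inside the stretches. All stretches were read from hg38 in the direction of transcription, outside the annotated exons of protein-coding genes. No such stretch was found for MACROH2A1 and MACROH2A2. Capitals mark CCAAT or GGGCGG or TATAAA on either strand, so that ATTGG and CCGCCC are also in capitals, and neighbouring copies of GGGCGG can overlap or touch. CCAAT is the core of the element read by the factor called NF-Y. GGGCGG is known as the GC box, and TATAAA as the TATA box. The printed stretch ends 1 base before the start in H2AZ2, H2AX and H1-10, 6 bases before it in H3-3A and H3-3B, and 81 bases before it in H2AZ1.
H2AZ1, chr4:99950356-99950475, minus strand: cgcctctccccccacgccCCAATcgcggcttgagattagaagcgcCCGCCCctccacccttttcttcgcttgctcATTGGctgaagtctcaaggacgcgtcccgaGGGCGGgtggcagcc
H2AZ2, chr7:44848088-44848287, minus strand: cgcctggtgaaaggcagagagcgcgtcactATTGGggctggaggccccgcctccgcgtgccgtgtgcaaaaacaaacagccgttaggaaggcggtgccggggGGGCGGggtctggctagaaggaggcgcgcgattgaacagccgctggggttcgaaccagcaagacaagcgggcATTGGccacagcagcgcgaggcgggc
H2AX, chr11:119095466-119095665, minus strand: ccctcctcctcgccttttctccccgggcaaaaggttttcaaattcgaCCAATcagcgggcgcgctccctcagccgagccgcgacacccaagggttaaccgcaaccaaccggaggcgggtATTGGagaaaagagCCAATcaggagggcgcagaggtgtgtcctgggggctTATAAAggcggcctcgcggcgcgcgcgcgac
H3-3A, chr1:226062511-226062710, plus strand: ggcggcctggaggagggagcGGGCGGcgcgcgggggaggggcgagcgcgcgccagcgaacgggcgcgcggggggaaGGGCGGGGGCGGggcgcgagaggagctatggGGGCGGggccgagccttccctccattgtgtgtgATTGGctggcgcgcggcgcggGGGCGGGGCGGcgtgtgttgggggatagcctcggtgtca
H3-3B, chr17:75779785-75779984, minus strand: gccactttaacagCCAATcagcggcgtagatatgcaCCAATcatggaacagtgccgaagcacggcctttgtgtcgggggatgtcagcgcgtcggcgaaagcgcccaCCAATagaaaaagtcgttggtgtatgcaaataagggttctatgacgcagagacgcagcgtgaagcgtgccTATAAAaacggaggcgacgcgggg
H1-10, chr3:129316287-129316486, minus strand: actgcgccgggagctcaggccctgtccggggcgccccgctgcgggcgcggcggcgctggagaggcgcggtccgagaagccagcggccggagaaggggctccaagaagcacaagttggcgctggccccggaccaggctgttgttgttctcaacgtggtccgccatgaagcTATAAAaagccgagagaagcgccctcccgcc

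Counted from the start at its first base, TATAAA stood at −31 in H2AX, at −29 in H3-3B and at −31 in H1-10, and CCAAT stood on the sense strand at −153 and −67 of H2AX and at −192, −169 and −99 of H3-3B. H3-3A stood apart in letters, with 6 copies of GGGCGG and a GC content of 79.0% in the printed stretch, against 55.0% in H3-3B. The RefSeq promoter table held 12 promoters of the 8 genes, each from 250 bases before to 50 bases after a start. CCAAT occurred on either strand in 8 of these 12 (66.7%) and in 34.6% of all 35116 promoters. TATAAA occurred in 4 of 12 (33.3%) against 11.5%, and GGGCGG in 8 of 12 (66.7%) against 45%. The MACROH2A2 promoter held none of these motifs. Promoters of 1 gene overlap or lie close together, and these counts describe letters, not sites of binding.

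**Figure D1:**
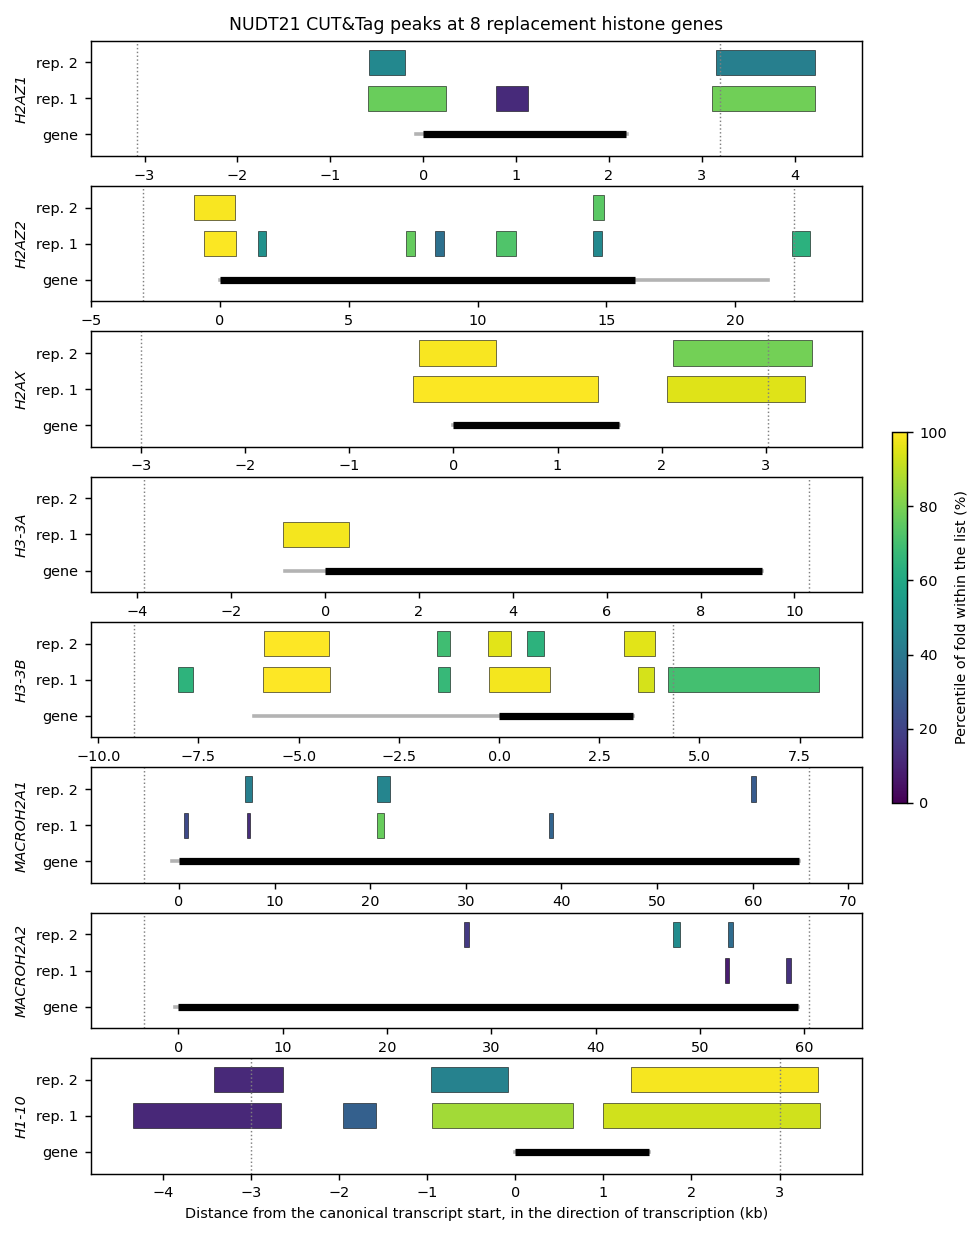
Peaks of both replicates at the 8 genes, drawn to scale by distance from the canonical transcript start (kb, each panel with its own axis). Black bars are the canonical transcript, grey bars the whole annotated gene, dotted lines the window, and colours the percentile of the fold within the list (%). H2AX, H2AZ2 and H3-3B carry peaks of high percentile over their starts in both rows, and the row of replicate 2 at H3-3A is empty.

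H2AX encodes the H2A variant that is phosphorylated around DNA breaks, and it is a gene of a single exon at chr11:119093874-119095465 on the minus strand of hg38. The peak at its start had a fold of 16.4 in replicate 1 and 12 in replicate 2, the 99.6 and 99.2 percentiles. The summits held 141 fragments, where the control level was 7, and 58 fragments, where it was 3.90. The control level is the background that the peak caller used at the summit, and whether it came from a separate control library is not stated in the sources used here. Counting error alone gave 95% Poisson intervals of the fold of 13.8 to 19.3 and 9.19 to 15.5. All such intervals cover counting error only. Both summits stood on the same base, at −109 bp from the canonical start, inside the stretch shown above. This peak was also in the window of DPAGT1, so the assignment to H2AX rests on position. A further peak past the 3′ end of H2AX, with folds of 8.17 and 5.51 (percentiles 95.1 and 78.6), was present in both replicates.

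H3-3B encodes histone H3.3, the H3 form deposited at active genes and at heterochromatin outside replication. It lies at chr17:75776434-75785893 on the minus strand, with 4 exons in its canonical transcript. Its strongest peak had folds of 21.0 and 16.7, the 99.8 percentile of both lists, from 168 fragments over 6.43 and 90 over 4.46. Its summits lay at −5100 and −5093 bp from the canonical start, near upstream annotated starts of H3-3B and in the windows of UNK and MIR4738. A separate peak lay at the canonical start itself, in no other gene's window. There the fold was 11.3 (98.3 percentile, 60 fragments over 4) in replicate 1 and 8.19 (95.7 percentile, 30 fragments over 2.78) in replicate 2. Its summits stood at −109 and −102 bp. Both start regions of H3-3B therefore ranked above 95% of their list in each replicate.

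H3-3A encodes the same H3.3 protein from a separate gene, and its coding sequence is identical to that of H3-3B at 78.4% of 408 bases. It lies at chr1:226061851-226072019 on the plus strand. In replicate 1 its start peak was 1422 bp long and had a fold of 11.4, the 98.4 percentile, from 98 fragments over a control level of 7 (95% Poisson interval of the fold 9.29 to 13.9). The summit lay at −167 bp, and the peak was also in the window of the divergent transcript H3-3A-DT. Replicate 2 held no peak in the window, and its nearest peaks on either side were 19362 and 19910 bp away from the replicate 1 peak.

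Such an absence was rare among peaks of this height. Of 1487 replicate 1 peaks with at least this fold, 23 (1.55%) overlapped no replicate 2 peak. Where summits of such peaks lay within 200 bp in both lists (1039 pairs), the fragments of replicate 2 had a median of 0.479 of those of replicate 1, with 5th and 95th percentiles of 0.251 and 0.661. These ratios leave out places where replicate 2 had no peak. At H3-3A, 6.69% of the 32-base words of the peak occurred elsewhere in hg38. Its GC content was 74.1%, the highest among all peaks of the replacement histone genes. A promoter peak in replicate 1 beside an empty window in replicate 2 was found in 9.62% of all protein-coding genes. The reason for the missing peak was not tested.

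H2AZ2 and H2AZ1 encode the H2A.Z proteins, which flank the start sites of active genes, and their coding sequences are identical at 80.5% of 384 bases. H2AZ2 lies at chr7:44826791-44848087 and H2AZ1 at chr4:99948086-99950355, both on the minus strand. The H2AZ2 start peak had folds of 15.2 (99.4 percentile, 131 fragments over 7) and 12.2 (99.2 percentile, 52 fragments over 3.34). Its summits lay 10 and 154 bp past the canonical start, and H2AZ2-DT shared it. The percentile ranges of H2AX and H2AZ2 overlapped, so these genes did not differ beyond the spread of the replicates. Replicate 1 had 6 further, weaker H2AZ2 peaks, with folds of 3.54 to 5.18. In 5 of them, 70.2% to 94.8% of 32-base words occurred elsewhere in hg38.

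H2AZ1 had its start peak at the same base in both replicates, at −339 bp from the canonical start, but at a lower rank. This peak was also in the window of H2AZ1-DT. The folds were 5.19 (77.0 percentile) and 4.12 (46.5 percentile). The fragments were many, 106 and 49, against control levels of 18 and 11.1, where the medians of all peaks were 6 and 3.79. Ranked by −log10 p in place of the fold, the strongest promoter peak of H2AZ1 moved from a mean percentile of 61.8 to 92.1. H2AZ1 was thus high in fragments and lower in enrichment over its control level. Another peak of like height lay past the 3′ end, with folds of 5.32 and 4, in the windows of DNAJB14 and H2AZ1-DT.

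H1-10 encodes H1.10, a replication-independent linker histone, from a single exon at chr3:129314771-129316286 on the minus strand. Its strongest peak was not at its start but past its 3′ end, with the summit 1055 bp beyond it on the same base in both replicates. The folds were 7.29 (92.6 percentile, 78 fragments over 9) and 10.5 (98.5 percentile, 62 fragments over 5.01). This gene is so short that the peak still counted as a promoter peak under the 3000 bp rule. The peak at the start, with its summit at −256 bp on the same base in both replicates, had folds of 6.07 (86.2 percentile, 61 fragments over 8.42) and 4.04 (44.3 percentile, 24 fragments over 5.19). In replicate 2 the Poisson intervals of both H1-10 folds did not overlap, 2.65 to 5.93 at the start against 8.07 to 13.4 past the end. In replicate 1 they did, 4.67 to 7.77 against 5.78 to 9.07. All H1-10 peaks lay in the window of H1-10-AS1.

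MACROH2A1 and MACROH2A2 encode macroH2A histones, which carry a large macro domain and are enriched in repressed chromatin. Their genes, at chr5:135334381-135399914 on the minus strand and chr10:70052544-70112282 on the plus strand, are long, 65534 and 59739 bp, and their peaks were few and weak. MACROH2A1 had 4 peaks in replicate 1 and 3 in replicate 2, none above a fold of 5.19. A single one lay near the canonical start, in replicate 1 with a fold of 3.11 (22.6 percentile) at 676 bp past it. The strongest place was an intron peak in both replicates, with folds of 5.19 and 4.08 and summits 20998 and 21058 bp past the start. MACROH2A2 had 2 and 3 peaks with folds of 2.59 to 2.82 and 3.22 to 4.17. None lay near its canonical start, and the nearest summits were 52499 bp past it in replicate 1 and 27571 bp past it in replicate 2. Of its 5 peaks, 4 were in the window of AIFM2. The promoter peaks counted for both genes were therefore mostly near annotated starts inside the gene, at 7170 and 7415 bp past the canonical start in MACROH2A1, for example.

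**Figure D2:**
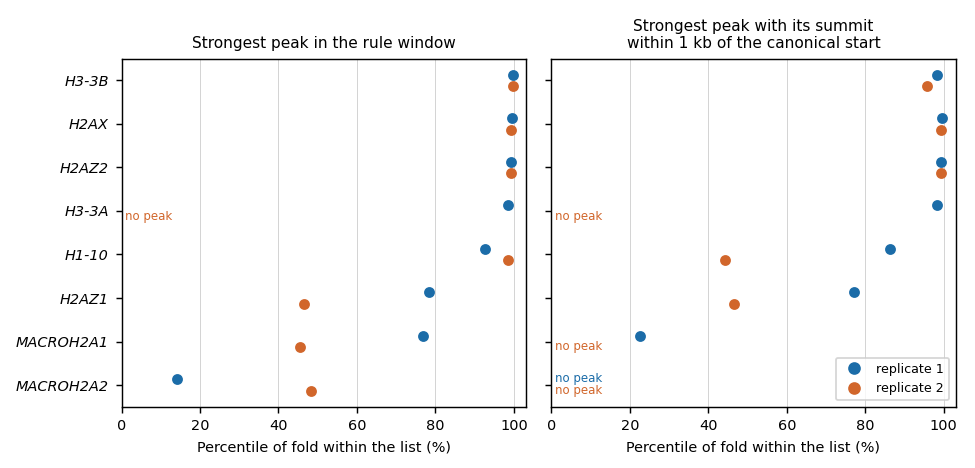
Percentile of the fold within its list (%) for each gene in both replicates, on the left for the strongest peak in the window and on the right for the strongest peak with its summit within 1 kb of the canonical start. H3-3B, H2AX and H2AZ2 lie above 95% in both panels and replicates, and H1-10 moves down on the right, to 86.2 and 44.3.

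In the order of mean percentiles of the strongest promoter peak, H3-3B led with 99.8 ± 0.00267 (SD, n = 2), before H2AX with 99.4 ± 0.247 and H2AZ2 with 99.3 ± 0.115. H1-10 followed with 95.6 ± 4.15, H2AZ1 with 61.8 ± 21.5, MACROH2A1 with 37.3 ± 7.92 and MACROH2A2 with 31.2 ± 24.1. The first place of H3-3B rests on its upstream peak, which UNK and MIR4738 share. With the canonical transcript alone, H3-3B was at 97, below H2AX with 99.4 and H2AZ2 with 99.3 under the same setting. With peaks in no other gene's window, H3-3B was also at 97, but H2AX and H2AZ2 then had no value to set beside it. Neighbours whose ranges overlapped were H2AX and H2AZ2, and MACROH2A1 and MACROH2A2. The other neighbours did not overlap, with 2 replicates each. H2AZ1 and MACROH2A2, which are not neighbours, also overlapped. MACROH2A2 was at 14.1 in replicate 1 and 48.2 in replicate 2, and H2AZ1 was at 77.0 and 46.5. H3-3A has no place in this order, since it had no peak in replicate 2. Among the 11425 genes with promoter peaks in both lists, H3-3B stood at the 98.8 percentile, H2AX at 95.8, H2AZ2 at 95.5, H1-10 at 78.7, H2AZ1 at 29.2, MACROH2A1 at 11.8 and MACROH2A2 at 8.58. The median over the 7 placed genes was 95.6, from 92.6 in replicate 1 and 98.5 in replicate 2, and over the 11425 genes it was 81.3. As the middle gene, H1-10 alone gives the median of the 7, through its peak past the 3′ end and not the one at its start. By fold and with the 3000 bp rule, 4 genes stood at 95.6 or higher and 3 at 61.8 or lower. This split rests on those choices, since H2AZ1 was at 92.1 when ranked by −log10 p and H1-10 at 68.5 with promoters of 1000 bp. When peaks in any other gene's window were set aside, both lists held a window peak for 3 of the 8 genes (H2AZ2, H3-3B and MACROH2A1), beside 35.9% of all genes, with medians of 75.5 and 74.6. They held a promoter peak for 2 of the 8 (H3-3B and MACROH2A1), beside 28.7%, with medians of 67.1 and 73.4.

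A stricter reading of the start left out both macroH2A genes and H3-3A. A summit within 1000 bp of the canonical start was present in 7 genes in replicate 1, in 5 in replicate 2 and in 5 (62.5%) in both, namely H2AZ1, H2AZ2, H2AX, H3-3B and H1-10. Of all protein-coding genes, 40.8% had such a summit in both.

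**Figure D3:**
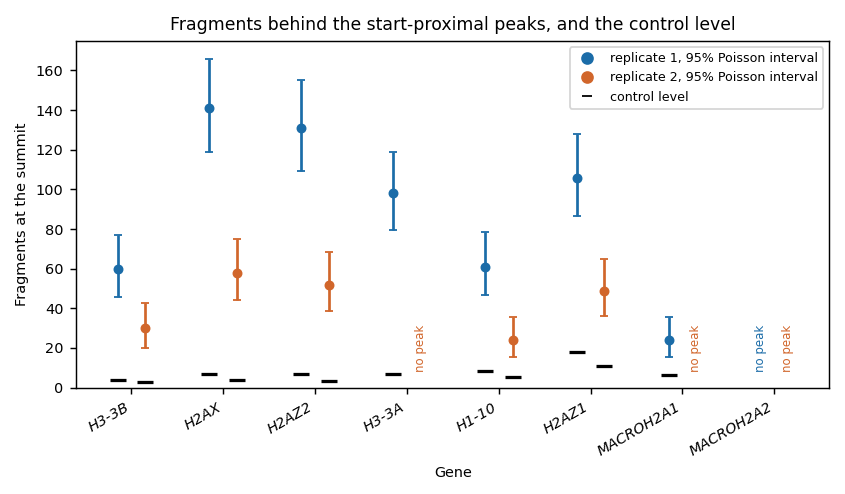
Fragments at the summit of the strongest peak within 1 kb of each canonical start (vertical axis, points), with 95% Poisson intervals as bars, and the control level as black dashes, for both replicates of each gene. Fragments of replicate 1 were scaled by 0.921 in the peak calls before they were set against the control level. H2AX and H2AZ2 have the most fragments, 141 and 131 in replicate 1, and H2AZ1 has 106 over the highest control level, 18.

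The 3′ ends were described because cleavage and polyadenylation take place there. A summit within 1000 bp of an annotated 3′ end was found in both replicates in 3 of the 8 genes, H2AZ2, H3-3B and MACROH2A2, beside 28.0% of all genes. The strongest H1-10 peak covered its 3′ end in both replicates but did not count, with its summit 1055 bp beyond. At H3-3B the peak lay 275 and 384 bp past the end, with folds of 7.54 (93.5 percentile) and 8.19 (95.7 percentile). Its 32-base words occurred elsewhere in hg38 for 80.2% and 58.1% of the peak. At H2AZ2 a peak in the 3′ UTR had folds of 3.89 and 5.27, with 82% and 83.9% of words repeated. At MACROH2A2 the gene-end summits were at different places, 58377 bp past the canonical start in replicate 1 (fold 2.82) and 47937 bp past it in replicate 2 (fold 4.17). Whether the repeats contribute to these peaks was not tested.

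The letters at the ends of the canonical transcripts are shown at their processing motifs, because they mark where UGUA and the poly(A) signal AAUAAA would be read in the RNA. TGTA occurred on the sense strand in the last 100 transcribed bases of 3 of 8 genes (37.5%), against 51.8% of 20007 protein-coding genes. Counted from the end at its first base, it stood nearest at −56 in H2AZ1, −52 in H2AZ2 and −50 in H3-3A. Capitals mark TGTA here.
H2AZ1, chr4:99948132-99948151, minus strand: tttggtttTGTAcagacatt
H2AZ2, chr7:44832018-44832037, minus strand: tgggatcaTGTAcacctttt
H3-3A, chr1:226071962-226071981, plus strand: gctgttccTGTAagtttgct

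AATAAA occurred in the same last 100 bases of 4 genes (50%), against 65.8% of all genes, and capitals mark it here.
H2AZ1, chr4:99948090-99948119, minus strand: gtggataagttcAATAAAggtcatatccca
H3-3B, chr17:75776436-75776465, minus strand: ggatgagactaaAATAAAatttttgaagtt
MACROH2A2, chr10:70112241-70112270, plus strand: tgaaaggaaaaaAATAAAagatccagtgtc
H1-10, chr3:129314775-129314804, minus strand: ttttttgggcacAATAAAgcgtttaaacct

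The stem-loop of replication-dependent histone mRNAs has a core that was searched as CTTTTNAG on the sense strand of the last 1000 exonic bases. It was present in 64 of 68 replication-dependent histone genes (94.1%), in 10.5% of all genes and in 1 of these 8, H3-3B, where only 3 bases could pair around it. A search of the whole canonical transcript, added after the values were seen, found another in H2AX, 57 bases past the last coding base and at −1036 from the annotated 3′ end, with 6 paired bases. For this longer search no share over all genes was computed, and the 10.5% does not apply to it. H2AX is known to give both a short stem-loop mRNA and a longer polyadenylated one. At least 6 paired bases were also present in 63 of the 68 replication-dependent genes. Capitals mark the core.
H2AX, chr11:119094897-119094914, minus strand: aggccCTTTTAAGggcca

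Other histone genes, and genes of factors that place histones, those of the replacement histones included, were set beside the replacement histone genes. Promoter peaks were found in both replicates in 58 (85.3%) of the 68 replication-dependent histone genes, with a median mean percentile of 99.7. Neighbours in these clusters share peaks, which left 54 and 46 distinct promoter peaks in replicates 1 and 2. The highest, H2BC4 and H2AC6, shared a peak with folds of 34.6 and 34.1, and the lowest were H4C9 with a mean percentile of 34.7 and H2BC9 and H3C7 with 42.3 at a shared peak. The strongest replacement histone peak, 21.0 and 16.7 at H3-3B, was below the highest of these in both replicates.

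Among other variant histones, CENPA, the centromeric H3, had a mean percentile of 93.1, while H2AJ and H3-5 had no promoter peak in either list. Of the H3.3 chaperones, 7 of 9 had promoter peaks in both replicates (median 88.7), highest at ASF1B with 99.5 and UBN1 with 95.9 and lowest at ASF1A with 52.9 and UBN2 with 60.5. ATRX and DEK had theirs in replicate 1 alone, as H3-3A did. All 11 chaperones and exchangers of H2A.Z had them (median 85.7), from RUVBL2 with 98.8 and SRCAP, the catalytic subunit of an H2A.Z exchanger, with 98.7 down to ZNHIT1 with 51.9 and ACTL6A with 36.5. So did all 5 factors of H2A-H2B and H2AX (median 78.3), from MDC1, the reader of phosphorylated H2AX, with 96.1 and SUPT16H with 89.0 to SSRP1 with 60.7 and NAP1L1 with 49.8. These medians stand beside 81.3 for all genes and 95.6 for the replacement histones, where it is the value of the H1-10 peak past the 3′ end.

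**Figure D4:**
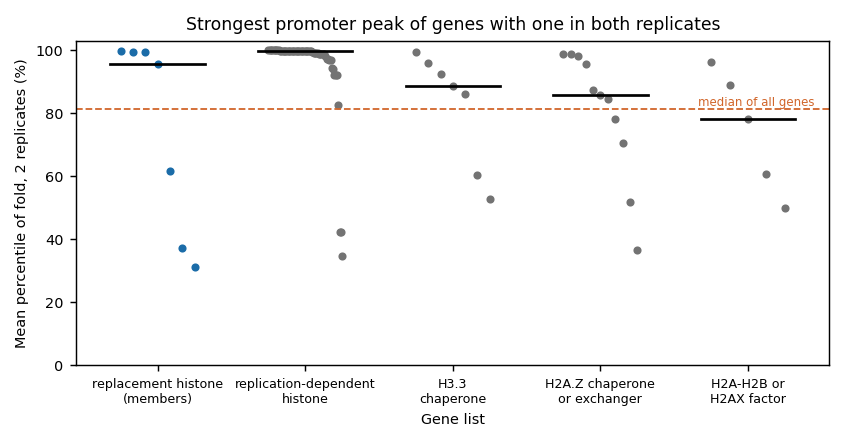
Mean percentile over the 2 replicates (%) of the strongest promoter peak, for genes of each list that had one in both; points are genes, black lines medians, and the dashed line is the median of all genes, 81.3. With promoters of 3000 bp and ranks by fold, 4 replacement histones lie at 95.6 or higher and 3 at 61.8 or lower, a split that changes with these choices (H2AZ1 92.1 by −log10 p, H1-10 68.5 with 1000 bp), and most replication-dependent histone genes lie near the top.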

How the data were processed

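Peaks were analysed from 2 NUDT21 CUT&Tag libraries of J.gamma1 cells. Per the labels and the methods of the study, the authors trimmed reads with fastp, aligned them to hg38 with Bowtie2 2.2.5, removed duplicates and called peaks per replicate with MACS3 3.0.1. Calling parameters and a control library are not given in the sources used here. The deposited lists hold, for each peak, the fold at the summit over the local background (a ratio), its −log10 p and −log10 q, and the summit's offset. The deposited score column was not used.

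Peaks on chromosomes 1 to 22, X and Y (92722 and 66671) were assigned to GENCODE 44 genes by position, and each fold was ranked within its own list, ties split equally. Promoter peaks had an edge within 3000 bp of any transcript start, and gene-end peaks a summit within 1000 bp of any 3′ end. Means and SDs are over 2 replicates, and every protein-coding gene gave the background.

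In MACS the fold is (pileup + 1) / (background + 1), and p comes from a Poisson distribution with that background. Solving both gave whole fragments and the background, called the control level, for 99.969% and 99.997% of peaks. The pileup of replicate 1 was scaled by 0.921. MACS scales a pileup where it sets a library against a control library of another depth, but the sources used here describe none, so folds and control levels may be relative to an undescribed library. The solver was tested on simulated data. Read totals are unknown, so the fragments at a summit are the only depth given, with 95% exact Poisson intervals.

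Motifs were searched in RefSeq promoters (GRCh38.p14) and hg38. All 35116 promoters equalled hg38. Repeats were measured as the share of 32-base words of a peak found elsewhere in hg38. Named genes were the 8 genes and, per comparison list, the 2 highest and 2 lowest, and those without a promoter peak where 5 or fewer. UNK, DPAGT1 and other neighbours were named as sharing a peak. The values of some other genes that fall under this rule or share a peak are not reported here. Genes and lists were chosen with earlier results of these data known. Scripts used Python 3.11.15, NumPy 2.4.6, SciPy 1.17.1 and matplotlib 3.10.9.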

Additional observations from a re-analysis of the deposited data

How the results depend on the processing

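Of 65 counts and medians under alternative settings, 53 stayed near the reported ones (counts within 1.5 times, medians within 1 SD of the replicates) and 12 moved. Some of the 53 could not move, so their number does not measure stability. The gene-end count always used summits and no promoter distance. Leaving out 1 replicate could only keep the window and promoter counts at 7 of 8 genes or raise them to 8. With peaks in no other gene's window, 3 genes in place of 7 had a window peak in both replicates, 2 in place of 7 a promoter peak and 1 in place of 5 a summit within 1000 bp of the canonical start, and the medians were 75.5 and 67.1 in place of 95.6 and 95.6. With a reciprocal overlap of 50%, 4 genes had a shared promoter peak and 2 a shared summit near the start. The gene-end count of 3 was 1 with 10000 peaks per list, 1 with the canonical transcript and 1 with peaks outside promoters. It was 0 with under 50% of words repeated, 3 to 5 with 1 replicate left out, and 5 without replicate 2. Of the changed counts given here, only the window and promoter counts with peaks in no other gene's window have a share over all genes. The others do not show whether these 8 genes changed more than all genes under the same setting. Among single genes, the mean percentile of H1-10 was 68.5 with promoters of 1000 bp, and that of H3-3B was 97 with the canonical transcript. The alternatives on repeated words, and all those of the summit count, were chosen after seeing the data. The cause was not tested. No paired analysis was possible because the 2 samples are replicates of a single group. With 2 replicates, no control sample and unknown read totals, a missing peak cannot be told apart from one below the threshold.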

Other observations

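Replacement histone peaks found in both lists often had close summits. Of 29 peaks in replicate 1, 16 (55.2%) overlapped a peak of replicate 2, beside 56.4% of the whole list, and of 20 in replicate 2, 17 (85.0%) overlapped one of replicate 1, beside 85.7%. Among the 17 overlapping pairs, 4 (23.5%) had both summits on the same base, at the starts of H2AZ1, H2AX and H1-10 and past the end of H1-10, and 13 (76.5%) had them within 200 bp. Among all 59898 pairs of the lists, 4.43% were on the same base and 55.8% within 200 bp. The pairs of 1 gene are not independent, and this difference was not tested. The sets were not matched for fold, so the values do not show a trait of these genes apart from peak height.

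The share of peaks lying mostly over repeated sequence was 8 of 29 (27.6%) in replicate 1 and 4 of 20 (20%) in replicate 2, beside 23% and 19% of sampled peaks of each list, and all of these but 1, at MACROH2A2 in replicate 2, were at H2AZ2 and H3-3B.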
